A study of Mus musculus with 20 samples.

Results

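Injured cells spill ATP and other nucleotides, and microglia carry the receptors and surface enzymes that read and clear them. The genes described here are 7 that encode these injury-sensing purine receptors and ectonucleotidases. They were listed by symbol and by role, not by a rule on their values, but with earlier results of these data known. They are the ATP-gated channels *P2rx4* and *P2rx7*, the UDP receptor *P2ry6*, the adenosine receptors *Adora2a* and *Adora3*, and the ectonucleotidases *Entpd1* and *Nt5e*. Of these 7 genes, 6 were listed in the table of 16810 genes, and *Adora2a* was not analysed here. All 6 passed the filter on low counts that the authors had applied and had reads in every sample.

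Spinal microglia were sorted by flow cytometry for high eGFP, and the RNA of 20 samples was sequenced. All mice, controls included, were adult males of the CX3CR1+/eGFP genotype on a C57BL/6 background, heterozygous for a reporter that sits under the *Cx3cr1* promoter. That promoter is also active in blood monocytes and other macrophages, and more mice than samples are counted in the study's methods without a statement of how they were combined. The control group of non-injured (NI) cords held 3 samples. After lateral hemisection (HS), which cuts the thoracic cord on a single side, 3 samples were taken at 72 h, 2 at 1 week and 3 at 2 weeks. Full transection (FT) of that segment was sampled at the same times, with 3 samples each. The values are normalised read counts in CPM, counts scaled to the depth of each sample, and the depth ranged from 3.87 to 34.1 mega-reads per sample (median 10.1). Nothing in the labels names the animals behind each sample, so that p-values measure only the spread between these samples. In bulk RNA, fewer cells with a transcript and less transcript per cell cannot be told apart.

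Extracellular ATP opens the P2X channels, whereas UDP and ADP act on the G protein-coupled P2Y receptors. Entpd1 (CD39) removes phosphates from ATP and ADP to leave AMP, and Nt5e (CD73) turns AMP into adenosine, which in turn binds the adenosine receptors. In spinal microglia this pathway is best known for P2rx4 in neuropathic pain, P2rx7 in the release of interleukin 1 beta, P2ry6 in phagocytosis, and the ADP receptor P2ry12 in the movement of processes toward damage.

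*P2rx4* (ENSMUSG00000029470) lies on chromosome 5 of GRCm38 from 122707544 to 122729738 on the forward strand, 16111 bases downstream of *P2rx7* (ENSMUSG00000029468, 122643911 to 122691432, same strand). *P2ry6* (ENSMUSG00000048779) lies on chromosome 7 from 100937630 to 100974649 on the reverse strand. *Adora3* (ENSMUSG00000000562) lies on chromosome 3 from 105870858 to 105908926, *Entpd1* (ENSMUSG00000048120) on chromosome 19 from 40612366 to 40741602, and *Nt5e* (ENSMUSG00000032420) on chromosome 9 from 88327197 to 88372092, all on the forward strand. *Adora3* shares 779 of its exon bases (20.9%) with *Tmigd3* on the same strand, and *P2rx7* shares 119 with *Mir8115*. Neither partner was analysed here, and how reads of the shared bases were assigned is uncertain.

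Promoter windows of 250 bases upstream of a start site (RefSeq, GRCm38.p6) were matched for 5 members, *P2rx4*, *P2rx7*, *Adora3*, *Entpd1* and *Nt5e*, with 7 windows in all. The sequences shown are the window of *P2rx4*, which was higher after injury, and those of *Adora3* and *Entpd1*, which were lower and varied together over the samples. Each is printed 5′ to 3′ on the forward strand, and capitals mark matches on either strand to the PU.1-type core GAGGAA, the cAMP core TGACG or the AP-1 site TGANTCA.
*P2rx4*, chr5:122707294-122707543: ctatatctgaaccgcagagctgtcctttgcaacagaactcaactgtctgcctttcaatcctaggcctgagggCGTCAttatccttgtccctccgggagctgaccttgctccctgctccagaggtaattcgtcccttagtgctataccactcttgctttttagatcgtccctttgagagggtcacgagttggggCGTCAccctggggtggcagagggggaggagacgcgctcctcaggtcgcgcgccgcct
*Adora3*, chr3:105904171-105904420: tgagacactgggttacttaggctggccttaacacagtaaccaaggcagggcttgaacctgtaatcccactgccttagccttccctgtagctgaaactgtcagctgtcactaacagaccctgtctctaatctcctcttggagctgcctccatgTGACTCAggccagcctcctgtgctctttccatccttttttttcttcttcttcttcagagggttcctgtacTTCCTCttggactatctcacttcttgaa
*Entpd1*, second start site, chr19:40659520-40659769: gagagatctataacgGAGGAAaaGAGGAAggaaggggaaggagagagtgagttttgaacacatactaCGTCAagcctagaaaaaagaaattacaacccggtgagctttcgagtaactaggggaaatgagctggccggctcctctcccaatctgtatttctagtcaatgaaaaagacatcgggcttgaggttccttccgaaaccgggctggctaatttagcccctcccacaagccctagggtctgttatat
The window of *P2rx4* held the cAMP core in reverse at -178 and -57 bases from the start. That of *Adora3* held the PU.1-type core in reverse at -28 and an AP-1 site at -98, and that of *Entpd1* held the PU.1-type core at -235 and -227 and the cAMP core in reverse at -183. The first window of *Entpd1* held the cAMP core in reverse at -135, the first of *P2rx7* an AP-1 site at -249, and the window of *Nt5e*, with 72.0% G and C, none of these. The HIF core ACGTG, which can overlap the cAMP core as TGACGTG, was in none of the 7 windows. Of 32851 promoters of the same length, 23.3% held the PU.1-type core, 17.8% the cAMP core, 16.6% the HIF core and 6.75% the AP-1 site, so that matches of this kind are common.

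All 10 microglial markers (*Tmem119*, *P2ry12*, *Sall1* and others) were read in every group, with a summed level between 18503 and 38940 CPM. Single markers did differ from NI at an adjusted p under 0.05 (limma) and at least 2-fold. *Tmem119* was lower and *Fcrls* higher at 72 h after both injuries, *Fcrls* was higher at 1 week after FT, and *P2ry12* was lower at 2 weeks after FT. The 10 monocyte markers summed to 43.6 to 58.7 CPM in NI, 97.6 to 184 CPM at 72 h after HS and 145 to 335 CPM at 72 h after FT, and to 72.5 to 146 CPM in the later groups. Oligodendrocyte (382 to 2436 CPM) and astrocyte (164 to 742 CPM) markers were also present in all samples, as were neutrophil (16.2 to 292 CPM), lymphocyte (17.2 to 50.4 CPM), endothelial (26.8 to 88.5 CPM), fibroblast and pericyte (11.0 to 123 CPM) and neuronal (12.9 to 74.7 CPM) markers. FT 72 h replicate 1 had the highest monocyte sum, and FT 1 week replicate 1 had the lowest microglial sum.

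Per kilobase of exon, *P2ry6* and *Entpd1* were the most abundant members in the resting cord and *Nt5e* by far the least. The mean level in NI was 119 ± 19.8 CPM per kb for *P2ry6*, 111 ± 6.75 for *Entpd1*, 49.7 ± 2.54 for *Adora3*, 30.4 ± 1.77 for *P2rx7*, 10.7 ± 2.70 for *P2rx4* and 0.135 ± 0.0271 for *Nt5e* (SD, n = 3 each). In NI the ranges of *P2ry6* and *Entpd1* overlapped, and every other neighbouring pair was apart. In the injured groups *P2ry6* stayed first and *Nt5e* last, and the ranges of *Adora3* and *P2rx7* overlapped in all 6. At 2 weeks after FT the means of *Adora3*, *P2rx7* and *P2rx4* were 34.3 ± 5.35, 31.1 ± 3.77 and 28.99 ± 9.96 CPM per kb (SD, n = 3 each), and neither neighbouring pair stood apart. The same held in every other injured group except 1 week after HS, where *P2rx4* stood apart below *P2rx7*. *P2rx7* stood above *Adora3* only at 1 week after FT, where their ranges overlapped. The order of means depends on the length used. With the longest annotated transcript in place of all exons, the mean of *P2rx4* was above that of *P2rx7* in each of the 6 injured groups. In each, the difference was smaller than the SD of *P2rx4*, as in 40.0 ± 18.8 against 39.7 ± 8.11 CPM per kb at 1 week after FT (SD, n = 3 each). With that length *P2rx7* was above *Adora3* in no group.

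**Figure D1:**
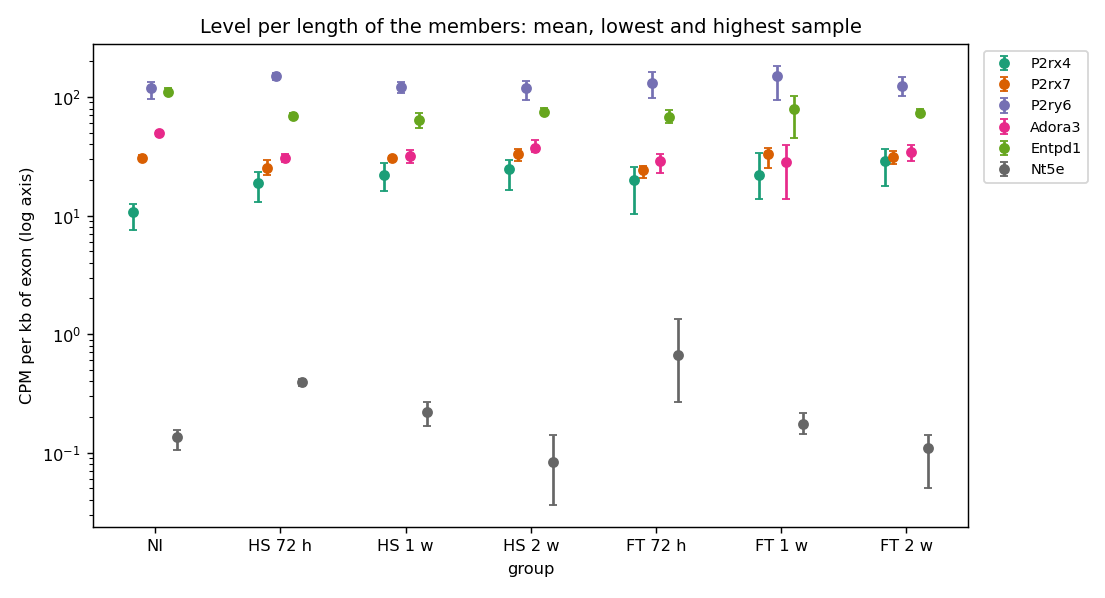
Level of the 6 members in CPM per kb of exon (log axis) in each of the 7 groups, with points at group means and bars from the lowest to the highest sample. *P2ry6* is highest and *Nt5e* lowest in every group. Neighbours among *Adora3*, *P2rx7* and *P2rx4* overlap in every injured group except 1 week after HS, where *P2rx4* stands apart below *P2rx7*.

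*P2rx4*, the ATP-gated channel of microglia in nerve injury, was higher in the injured cord, and the difference from the 87.2, 85.3 and 53.5 CPM of NI passed the test at 2 weeks after FT. At 72 h it had 141, 90.6 and 163 CPM after HS and 169, 71.9 and 181 CPM after FT. At 1 week it had 194 and 113 CPM after HS and 97.9, 238 and 132 CPM after FT. At 2 weeks it had 207, 117 and 202 CPM after HS and 257, 229.8 and 124 CPM after FT. Of the 17 injured samples 16 lay above all 3 NI samples, the exception being FT 72 h replicate 2. All 17 lay above for 4.94% of all genes, a stricter condition that *P2rx4* did not meet. The share of genes with at least 16 above was not counted.

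The comparison of each injured group with NI asks which members follow the lesion, and a gene was called when its adjusted p was under 0.05 and its change at least 2-fold. The 6 comparisons share the 3 NI samples. At 2 weeks after FT the log2 fold change of *P2rx4*, on the scale of CPM plus 0.5, was 1.40 (standard error 0.38, limma adjusted p = 0.0214), or 2.63-fold, and it was the 1 member of 6 called there, against 4.88% of all genes. At 2 weeks after HS it was 1.20 (limma adjusted p = 0.0747). It was 0.79 and 0.82 at 72 h, and 1.00 and 0.98 at 1 week after HS and FT, with limma adjusted p between 0.120 and 0.284. When the 6 injured groups were averaged, a comparison added after the values were seen, *P2rx4* was 1.03 above NI (standard error 0.29, limma adjusted p = 0.0153), and 5.43% of all genes were called. Without NI replicate 3 the average was 0.80 (limma adjusted p = 0.158), and the call at 2 weeks after FT was lost (1.17, limma adjusted p = 0.123), as it was without FT 2 weeks replicate 1 (1.19) or 2 (1.27). The average fell just under the 2-fold limit without any 1 of 5 other samples (HS 1 week replicate 1, FT 72 h replicates 1 and 3, FT 1 week replicate 2, FT 2 weeks replicate 1), with 0.97 to 1.00. With every column scaled to the same total, both calls of *P2rx4* were lost, at 1.00 (limma adjusted p = 0.0657) at 2 weeks after FT and 0.66 (limma adjusted p = 0.0710) over the injured groups, and under quantile normalization the average was 0.83 (limma adjusted p = 0.0347), under the 2-fold limit.

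*P2rx4* was also the member that varied most between samples of 1 group for its level. Its within-group SD was 0.56 on the log2 scale, larger than that of 96.5% of the 1766 genes within 2-fold of its mean level. HS 2 weeks replicate 2, FT 72 h replicate 2 and FT 1 week replicate 1 were each the low sample of their group, and with that sample left out the differences at 2 weeks after HS (1.47, limma adjusted p = 0.0467), 72 h after FT (1.24, limma adjusted p = 0.0233) and 1 week after FT (1.26, limma adjusted p = 0.0443) were each called. The difference at 2 weeks after HS was also called without FT 72 h replicate 2, which bears on the shared spread (1.20, limma adjusted p = 0.0382). The genes most like *P2rx4* over the 20 samples, which share their depth and scaling, were *Aplp2* (Pearson correlation 0.95), *Fam3c* (0.90) and *Hexa* (0.90).

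**Figure D2:**
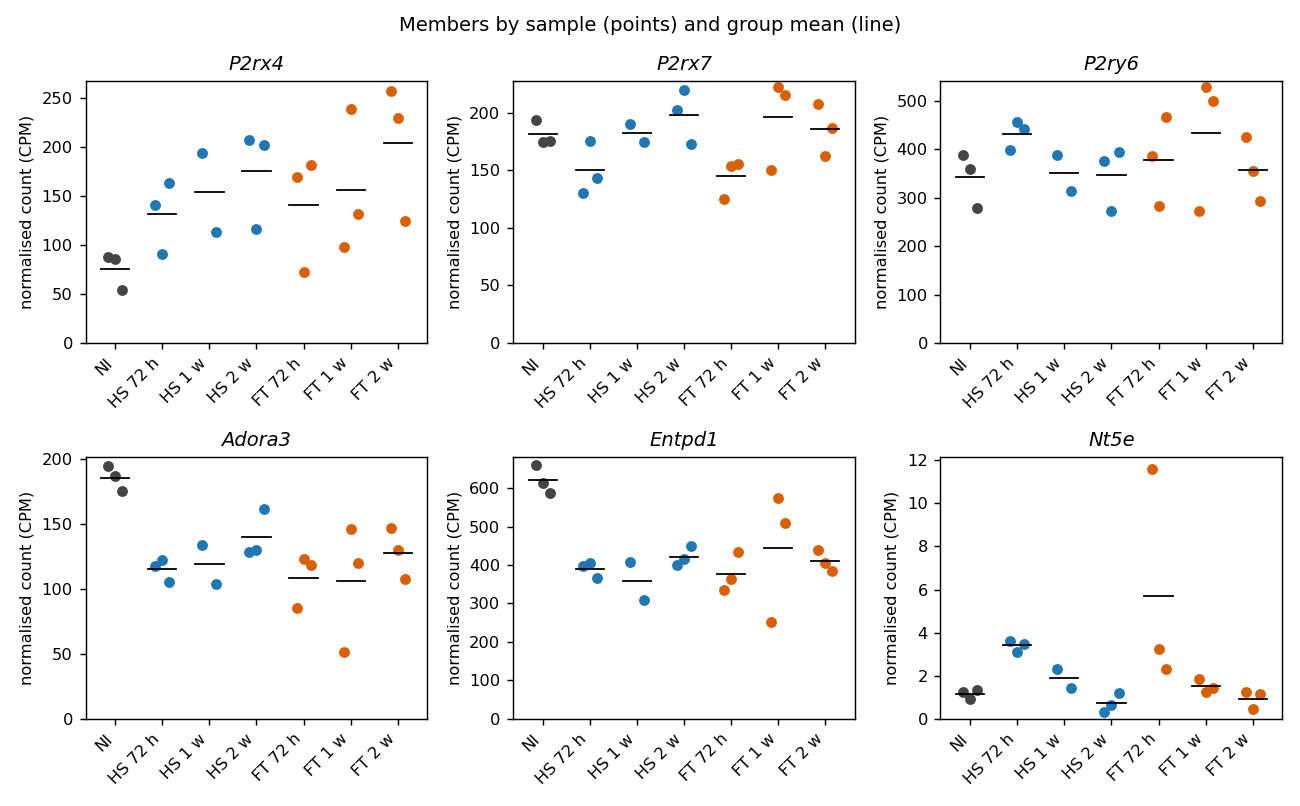
Normalised count (CPM) of the 6 members in each of the 20 samples (points) with the group mean (line), NI in grey, HS in blue and FT in orange. *Adora3* and *Entpd1* are lower in all 17 injured samples than in the 3 NI samples, and *Nt5e* is high at 72 h.

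*P2rx7*, the low-affinity ATP channel, passed the test in none of the comparisons with NI as deposited, where it had 193, 174 and 176 CPM. At 72 h it had 131, 176 and 144 CPM after HS and 125, 154 and 156 CPM after FT. At 1 week it had 190.1 and 175 CPM after HS and 150.0, 223 and 215 CPM after FT. At 2 weeks it had 202, 219.6 and 172 CPM after HS and 207, 162 and 187 CPM after FT. The 3 FT samples at 72 h lay below the 3 NI samples, and the groups overlapped at every other time. The log2 fold change from NI was -0.28 and -0.33 at 72 h after HS and FT (95% intervals -0.65 to 0.09 and -0.70 to 0.04) and between 0.01 and 0.12 at the later times. This depends on the scaling: at 72 h *P2rx7* was at -0.78 and -0.76 after HS and FT under quantile normalization (limma adjusted p = 0.000638 and 0.000788) and at -0.79 and -0.80 with the same total in every column (limma adjusted p = 0.000558 and 0.000591), all under the 2-fold limit. With the 4 later groups averaged against the 2 groups at 72 h, again added after the values were seen, *P2rx7* was higher by 0.37 (standard error 0.11, limma adjusted p = 0.0171), under the 2-fold limit, where 28.9% of all genes had an adjusted p under 0.05. Without HS 72 h replicate 1 or FT 72 h replicate 1 that adjusted p was above 0.05, at up to 0.0632 (limma). Its neighbour *P2rx4* had a Pearson correlation of 0.13 with it over the 20 samples. Its within-group SD of 0.20 was larger than that of only 19.2% of the 1441 genes of like level. The genes most like it were *Slc29a3* (0.92), *Csf3r* (0.87) and *Tgfbr1* (0.86).

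*P2ry6*, the receptor that UDP from damaged cells engages, did not pass the test in any comparison either, and had 389, 359.6 and 278 CPM in NI. At 72 h it had 399, 457 and 442 CPM after HS and 386, 283 and 466 CPM after FT. At 1 week it had 389 and 313 CPM after HS and 274, 529 and 499.6 CPM after FT. At 2 weeks it had 376, 273 and 394 CPM after HS and 426, 354 and 293 CPM after FT. Only at 72 h after HS did its samples lie above all 3 NI samples, with a log2 fold change of 0.35 (95% interval -0.16 to 0.86, limma adjusted p = 0.294). The other 5 differences from NI were between 0.02 and 0.30. The genes most like *P2ry6* were *Smarcal1* (Pearson correlation 0.88) and *Men1* (0.88).

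*Adora3*, an adenosine receptor that inhibits adenylyl cyclase, was lower in the injured cord than in NI, where it had 194, 186 and 175 CPM. At 72 h it had 117, 122 and 105 CPM after HS and 84.9, 123 and 118 CPM after FT. At 1 week it had 134 and 104 CPM after HS and 51.3, 146 and 119 CPM after FT. At 2 weeks it had 128, 129 and 161 CPM after HS and 147, 129 and 107 CPM after FT. All 17 injured samples lay below all 3 NI samples, which held for 2.3% of all genes. After FT the log2 fold change was -0.79 at 72 h (standard error 0.26, limma adjusted p = 0.0335), and a week after FT it was -0.94 (standard error 0.26, limma adjusted p = 0.0319), both under the 2-fold limit. It was -0.69 at 72 h after HS (limma adjusted p = 0.0563), and between -0.65 and -0.42 in the other 3 groups. Over the 6 injured groups *Adora3* fell by 0.67 (standard error 0.20, limma adjusted p = 0.0236), under the 2-fold limit, where 5.9% of all genes were lower at that adjusted p. The adjusted p of *Adora3* went above 0.05 (limma) without any 1 NI sample or FT 72 h replicate 1 at 72 h after FT (up to 0.147), without any 1 NI sample or FT 1 week replicate 1 at 1 week (up to 0.105), and without any 1 NI sample over all groups (up to 0.107). At 1 week after FT replicate 1 had 51.3 CPM, and without it the difference was -0.49, whereas without replicate 2 or 3 it was -1.24 or -1.09 and called.

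*Entpd1*, the CD39 enzyme that clears ATP and ADP, was also lower than in NI, where it had 661, 614 and 587 CPM. At 72 h it had 397, 406 and 365 CPM after HS and 336, 362 and 434 CPM after FT. At 1 week it had 407 and 308 CPM after HS and 251, 573 and 509.8 CPM after FT. At 2 weeks it had 399, 414 and 449 CPM after HS and 439, 406 and 385 CPM after FT. All 17 injured samples were below all 3 NI samples, the closest being FT 1 week replicate 2, and this held for 2.3% of all genes. *Entpd1* had an adjusted p under 0.05 at 72 h after HS (-0.67, standard error 0.23, limma adjusted p = 0.0314) and after FT (-0.72, standard error 0.23, limma adjusted p = 0.0230), under the 2-fold limit in both. At 1 and 2 weeks its log2 fold change was -0.81 and -0.56 after HS and -0.57 and -0.60 after FT (none with a limma adjusted p under 0.05). Averaged over the injured groups it fell by 0.65 (standard error 0.17, limma adjusted p = 0.0105), under the 2-fold limit. In that comparison 5.9% of all genes were lower at an adjusted p under 0.05. The later groups minus 72 h was 0.06 (95% interval -0.23 to 0.36). The adjusted p of *Entpd1* went above 0.05 (limma) at 72 h after HS without any 1 NI or HS 72 h sample (up to 0.0848), at 72 h after FT without NI replicate 1 or 2 or FT 72 h replicate 1 or 2 (up to 0.0863), and over all groups without NI replicate 1 or 2 (up to 0.0637).

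*Adora3* and *Entpd1* were the closest pair among the members, with a Pearson correlation of 0.89 over the 20 samples, which share the 3 high NI samples and the scaling of each column. Among 15475 genes, *Entpd1* was the second most like *Adora3*, after *Dapp1* (0.89) and before *Exog* (0.87). The genes most like *Entpd1* were *Il16* (0.96), *Ifngr1* (0.93) and *Ptgs1* (0.90). Markers of other cells also differed in the injured groups averaged together. Of 8 astrocyte markers 4 were called lower and 1 higher, and of 7 markers of border-associated macrophages 4 lower and 1 higher. Lower as well were 3 of 6 neuronal markers, 1 of 9 lymphocyte markers (*Il7r*) and 1 of 8 endothelial markers (*Pecam1*). Of 10 monocyte markers 2 (*Chi3l3* and *Ms4a4c*) were called higher. The lymphocyte markers summed to 47.3 to 50.4 CPM in NI and 17.2 to 29.7 CPM after injury, and the neuronal markers to 39.6 to 74.7 CPM in NI and 12.9 to 39.5 CPM after injury, with no marker at 0 in a whole group. Their part in the levels of *Adora3* and *Entpd1* was not tested.

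*Nt5e*, which makes adenosine from AMP, was the only member with an early difference that passed both limits, and it was rare: 2 to 109 reads per sample stood behind its values, with 1.25, 0.901 and 1.34 CPM in NI. At 72 h it had 3.60, 3.11 and 3.49 CPM after HS and 11.6, 3.21 and 2.32 CPM after FT. At 1 week it had 2.31 and 1.44 CPM after HS and 1.85, 1.24 and 1.42 CPM after FT. At 2 weeks it had 0.312, 0.641 and 1.21 CPM after HS and 1.22, 0.435 and 1.15 CPM after FT. The 6 samples at 72 h lay above the 3 NI samples and above all 11 later samples, the closest being FT 72 h replicate 3 and HS 1 week replicate 1. These 2 samples were all but equal, at 0.26914 and 0.26909 CPM per kb. Their difference is far below 1 read, which was worth 0.0890 and 0.136 CPM in them, so that they are not resolved. For 4.52% of all genes the later samples lay wholly below those at 72 h. FT 72 h replicate 1, at 11.6 CPM, stood far above all others.

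At 72 h the log2 fold change of *Nt5e* from NI was 1.24 after HS (standard error 0.41, limma adjusted p = 0.0279) and 1.60 after FT (standard error 0.41, limma adjusted p = 0.00605), or 2.35-fold and 3.04-fold on the scale of CPM plus 0.5. It was the 1 member of 6 called in each, against 13.4% of all genes after HS and 12.2% after FT, so that 1 in 6 is near the background. Over 3 NI samples the gene had 42 reads, against 159 and 130 reads at 72 h after HS and FT. With the reads themselves, DESeq2 gave 2.30 after FT, at the upper end of the 1.24 to 2.30 over 12 alternative settings. At 1 and 2 weeks the difference from NI lay between -0.50 and 0.50, with limma adjusted p of at least 0.616. The call after FT was lost without FT 72 h replicate 1 (0.97, limma adjusted p = 0.0516), and the call after HS without any 1 of the 3 NI or the 3 HS 72 h samples (1.12 to 1.31, limma adjusted p between 0.0519 and 0.0988).

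Some markers of monocytes and of other cells were also higher at 72 h, and some of other cells were lower. Of the 10 monocyte markers, 3 were called higher at 72 h after HS and 6 after FT, and none was at 0 in any group. The fibroblast marker *Col3a1* (1 of 8 markers) and the astrocyte marker *Gfap* were called higher after both injuries. After HS 3 of 8 astrocyte markers were lower. After FT 1 of 8 was lower, and *Aldh1l1* was higher beside *Gfap*. Lower after both injuries were the lymphocyte marker *Il7r* and the neuronal markers *Snap25* and *Nefl*. The neutrophil marker *Camp* was lower after HS and *Cxcr2* after FT, and the lymphocyte marker *Nkg7* was higher after FT. FT 72 h replicate 1 had the highest monocyte sum (335 CPM, against 176 and 145 CPM in its companion samples) and the highest sum of 7 markers of border-associated macrophages (354 CPM, against 191 to 243 CPM in the other 72 h samples and 203 to 218 CPM in NI). Of these 7 markers, *Folr2* was called higher at 72 h after both injuries, and *Lyve1* and *Mrc1* lower after FT. Their part in the level of *Nt5e* was not tested. The genes most like *Nt5e* over the 20 samples were *Emp1* (Pearson correlation 0.94), *Angptl2* (0.90) and the adenosine deaminase *Ada* (0.88).

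**Figure D3:**
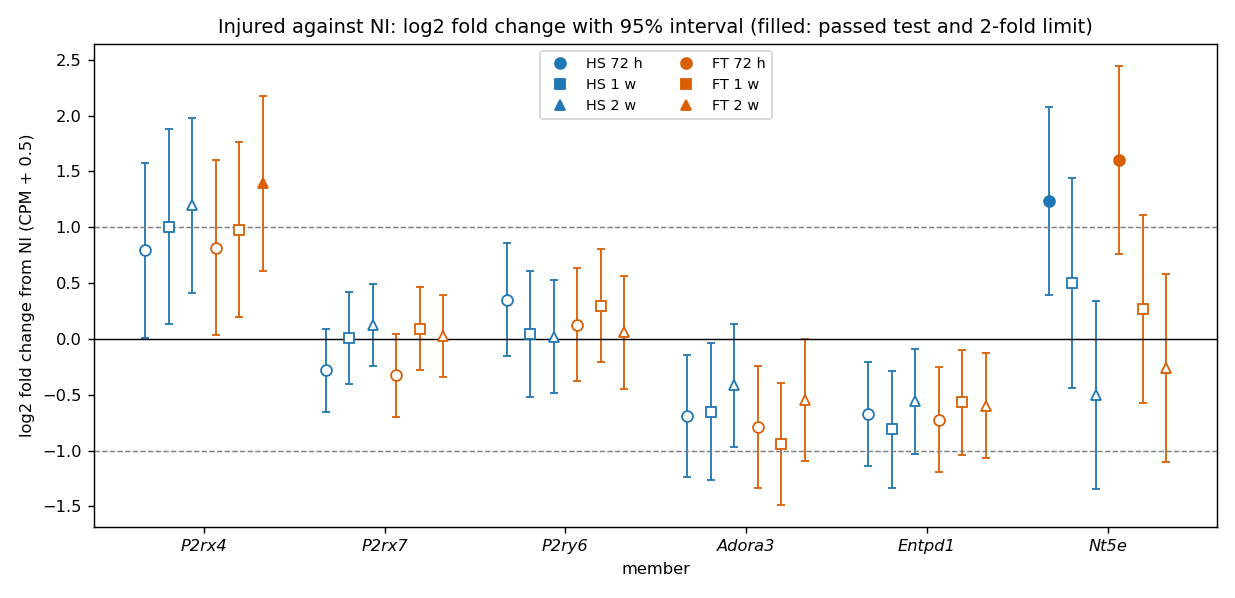
Log2 fold change of the 6 members from NI (CPM plus 0.5) with 95% interval, HS in blue and FT in orange, at 72 h (circles), 1 week (squares) and 2 weeks (triangles). The filled points, *P2rx4* at 2 weeks after FT and *Nt5e* at 72 h after both injuries, passed the test and the 2-fold limit (dashed lines).

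In the remaining comparisons with NI no member was called by limma. At 1 week after HS 0 of 6 members were called, with 3 at an unadjusted p under 0.05 and 0 by edgeR or DESeq2, against 2.18% of all genes. At 2 weeks after HS the count was 0, with 2 at an unadjusted p under 0.05, 0 by the quasi-likelihood test, and 1 (*P2rx4*) each by the edgeR likelihood ratio test and DESeq2, against 3.23% of all genes. At 1 week after FT it was 0, with 3 at an unadjusted p under 0.05, 0 by either edgeR test and 1 (*P2rx4*) by DESeq2, against 4.05% of all genes.

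Without the 2-fold limit, the members with an adjusted p under 0.05 were 2 of 6 at 72 h after HS (27.3% of all genes), 3 of 6 at 72 h after FT (24.2%) and 1 of 6 at 1 week after FT (7.03%). Groups that did not overlap were also common at 72 h: 3 members lay wholly above NI and 2 wholly below after HS, where 24% and 24.9% of all genes did so, and 1 above and 3 below after FT, where 22.2% and 22.7% did. The median log2 fold change of the 6 members was 0.03 at 72 h after HS, against -0.11 for all genes, and -0.10 after FT, against -0.09.

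Of the members, *Nt5e* alone differed by over 2-fold between times. Between 72 h and 2 weeks it fell by 1.74 on the log2 scale after HS (standard error 0.41, limma adjusted p = 0.00784) and by 1.86 after FT (standard error 0.41, limma adjusted p = 0.00638), and neither pair of groups overlapped, as held for 15.6% and 13.8% of all genes in the lower direction. These calls were 1 of 6 members each, against 4.74% and 3.81% of all genes. Between 72 h and 1 week the difference was -0.73 after HS (limma adjusted p = 0.306) and -1.34 after FT (limma adjusted p = 0.0572), and from 1 to 2 weeks it was -1.01 and -0.52. From 72 h to 1 week after FT limma called 0 of 6 members, with 2 at an unadjusted p under 0.05 and 1 (*Nt5e*) each by both edgeR tests and DESeq2, against 3.44% of all genes. Without FT 72 h replicate 3 limma called *Nt5e* there as well (-1.75, limma adjusted p = 0.0171). From 72 h to 1 week after HS it called 0, with 0 at an unadjusted p under 0.05 and 0 by edgeR or DESeq2, against 6.03% of all genes. In the 4 later groups together *Nt5e* fell by 1.42 from 72 h (standard error 0.25, limma adjusted p = 0.000289), where 4.03% of all genes were called. Over the same groups 5 of 8 astrocyte, 3 of 8 fibroblast and pericyte, 3 of 7 border-associated macrophage and 2 of 10 monocyte markers were called lower. Also lower was 1 of 6 neuronal markers (*Tubb3*), whereas 3 of 8 neutrophil markers and 1 of 8 endothelial markers (*Flt1*) were called higher. From 72 h to 2 weeks after FT 7 of 8 astrocyte markers were called lower. Their part in the level of *Nt5e* was not tested either. The call from 72 h to 2 weeks after FT was lost when only these 2 groups were fitted (0 members called).

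No member passed the test between the 2 injuries. In FT against HS 0 of 6 members were called at 72 h, 1 week or 2 weeks, with 0 at an unadjusted p under 0.05 and 0 by edgeR or DESeq2, and 0% of all genes were called at any of these times. Averaged over the 3 times, FT minus HS was 0.07 for *P2rx4* (95% interval -0.41 to 0.54), -0.02 for *P2rx7* (-0.24 to 0.20), 0.03 for *P2ry6* (-0.28 to 0.33), -0.17 for *Adora3* (-0.50 to 0.16), 0.05 for *Entpd1* (-0.23 to 0.33) and 0.13 for *Nt5e* (-0.38 to 0.63). The intervals at single times ran from -1.18 to 1.21, so that a 2-fold difference in *Nt5e* lies within them at each of the 3 times.

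How far the members moved depends on how the columns were scaled. The deposited columns summed to 777426 to 830481 CPM in NI and to 878070 to 1202186 CPM after injury. At 72 h after HS all genes had a median difference from NI of -0.11 as deposited and -0.52 once every column was scaled to the same total, a setting chosen with the data known, and after FT it was -0.09 and -0.48. Scaled in that way, *Adora3* was at -1.20 and *Entpd1* at -1.18 after HS, both called, and *Nt5e* was at 0.84 and no longer called (limma adjusted p = 0.102). Relative to the median of all genes these shifts were small: *Adora3* went from -0.58 to -0.67, *Entpd1* from -0.56 to -0.66 and *Nt5e* from 1.34 to 1.37. Quantile normalization, which left the median at -0.07, gave -1.17 for *Adora3* and -1.32 for *Entpd1* after HS. *P2ry6*, not called under any setting, changed sign at 72 h under both of these scalings. The differences of *Adora3*, *Entpd1*, *P2rx4* and *Nt5e* from NI at 72 h kept their direction under each of the 4 scalings shown.

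**Figure D4:**
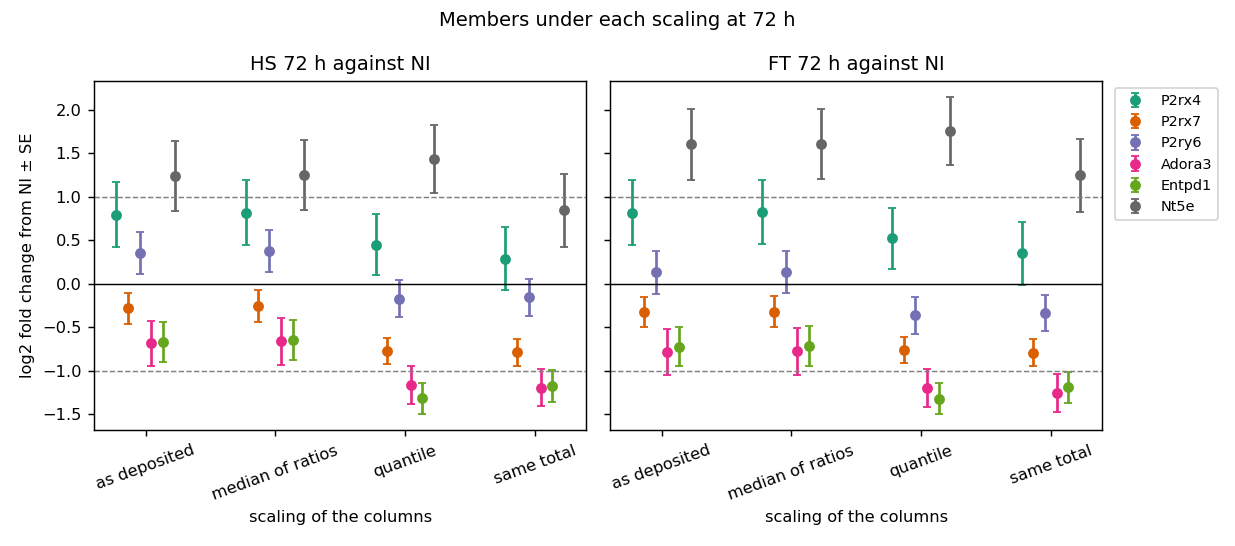
Log2 fold change from NI at 72 h with its standard error for the 6 members under 4 scalings of the columns, HS in the left panel and FT in the right. *Adora3* and *Entpd1* lie between 0 and -1 as deposited and below -1 under quantile normalization or the same total, and *P2ry6* crosses 0.

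Of 35 other genes of the purine pathway, 32 were listed in the table, and *P2rx2*, *Entpd4* and *Entpd8* were not analysed here. At 72 h after HS 4 were called higher and 0 lower, with a median of -0.12 against -0.11 for all genes, and after FT 4 were higher and 1 lower, with a median of -0.05 against -0.09. These counts of 32 are near the 13.4% and 12.2% of all genes called in the same comparisons. At 1 week 0 of 32 were called after either injury, at 2 weeks 0 after HS, and 2 higher with 1 lower after FT, where 4.88% of all genes were called.

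Among the other P2Y receptors (7 of 7 listed) *P2ry14*, the UDP-glucose receptor, rose at 72 h by 1.87 on the log2 scale after HS (limma adjusted p = 0.0003), by 1.83 after FT and by 1.57 at 2 weeks after FT, with 0.257 to 1.15 CPM in NI (2 to 12 reads) and 3.20 to 3.69 CPM at 72 h after HS. *P2ry12*, the ADP receptor of resting microglia, was at 3739 to 5085 CPM in NI and lower in 16 of 17 injured samples than in any of them, and it was called at 2 weeks after FT (-1.11, limma adjusted p = 0.0492). All 17 lay below NI for 2.3% of all genes, a stricter condition that *P2ry12* did not meet, and the share with at least 16 below was not counted. *P2ry13*, a second ADP receptor, had log2 fold changes of -0.75 to -0.40 and was not called. The other P2X receptors (4 of 5 listed) had no call against NI. Of the other adenosine receptors, *Adora1* had 6.67 ± 2.06 CPM and *Adora2b* 0.777 ± 0.424 CPM in NI (SD, n = 3 each), and neither was called.

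Among 9 of 11 other nucleotide-hydrolysing enzymes, *Enpp1*, which cleaves ATP to AMP and pyrophosphate, rose at 72 h after HS (1.43, limma adjusted p = 0.0084) and FT (1.77, limma adjusted p = 0.0018) and at 2 weeks after FT (1.30, limma adjusted p = 0.0382), from 8.66 ± 1.64 CPM in NI (SD, n = 3). All 17 injured samples had more *Enpp1* than any NI sample, which held for 4.94% of all genes. *Entpd5*, which acts on UDP and GDP in the endoplasmic reticulum, rose at 72 h after HS (1.09, limma adjusted p = 0.0023) and was at 0.84 after FT. Among 8 genes of adenosine uptake and clearance, *Ada*, which turns adenosine into inosine, rose at 72 h after HS (1.42) and FT (1.16), and *Adk*, which phosphorylates adenosine, rose after FT (1.12, limma adjusted p = 0.0141) and was at 0.76 after HS. Of the 2 nucleotide release genes *Slc17a9*, the vesicular nucleotide transporter, fell by 1.03 at 72 h after FT (limma adjusted p = 0.0054) and was at -0.77 after HS.

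From 72 h to 2 weeks 1 of the 32 genes was called higher and 3 lower after HS, and 0 higher and 4 lower after FT, against 4.74% and 3.81% of all genes. *Ada* fell by 1.30 after HS and 1.22 after FT, *Cd38*, which consumes NAD, by 1.48 and 1.44, and the ATP channel *P2rx1* by 1.25 and 1.14. *Adk* fell by 1.15 after FT, and the ADP receptor *P2ry1* rose by 1.06 after HS. *P2rx1*, *Cd38* and *P2ry1* were named after their values were seen. FT 72 h replicate 1, which had the most *Nt5e*, also had the most *Ada* (12.7 CPM), *Cd38* (38.3 CPM), *Enpp1* (40.4 CPM), *P2ry14* (3.87 CPM) and *Adora2b* (4.12 CPM) of the 20 samples.

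**Figure D5:**
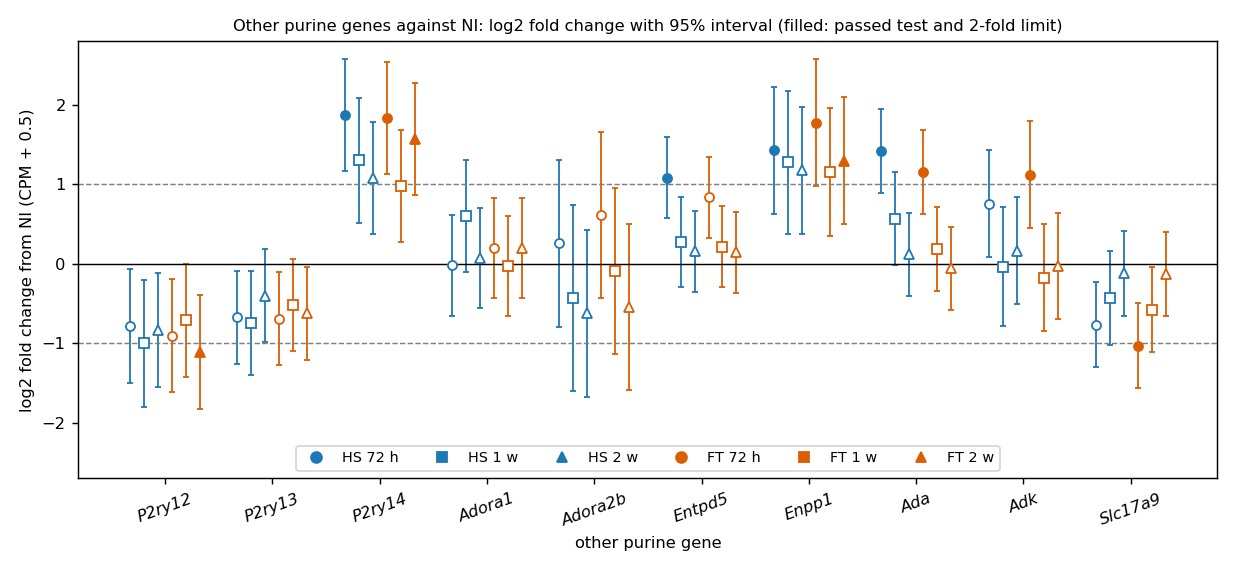
Log2 fold change from NI (CPM plus 0.5) with 95% interval for 10 other purine genes, HS in blue and FT in orange, at 72 h (circles), 1 week (squares) and 2 weeks (triangles), filled where the test and the 2-fold limit (dashed lines) were passed. *P2ry14* and *Enpp1* lie above 0 in all 6 comparisons and *P2ry12* below 0.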

How the data were processed

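Microglia RNA from 20 samples in 7 groups was compared. Per the labels, libraries were made with a SMARTer and Nextera kit. Per the study's methods, the authors removed adapters, aligned reads with TopHat2 2.0.9 to mm10, counted them with HTSeq 0.5.4p3, dropped genes with low counts and normalised the counts with edgeR 3.3.6. How the counting treated strand is not given in the sources used here, and where strand is not kept reads of a gene and of an antisense partner cannot be told apart. The authors deposited the result as a normalised signal per gene, here called CPM. Low genes took whole steps, and 100.0% of 336200 values were whole reads (tolerance 0.001 of a step), 1 read being worth 0.0330 to 0.292 CPM, which sets the precision of low genes such as *Nt5e*.

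The deposited values were tested with limma 3.58.1 in R 4.3.3 on log2(CPM + 0.5), with a trend, 1 fit over all 20 samples and two-sided p-values under Benjamini-Hochberg adjustment over 16810 genes. A gene was called at an adjusted p under 0.05 and at least 2-fold. No further filter on low values was applied. Alternatives were another pseudocount (0.1 or 1 CPM), a filter on low genes, only the 2 groups compared, other scalings, a replicate block, each sample left out, and edgeR 4.0.16 and DESeq2 1.42.0 on the recovered reads. The fits were tested on simulated data. All members were named. Other purine genes were named when called against NI, and *P2ry12*, *P2ry13*, *Adora1* and *Adora2b* whatever their value. For likeness, the 3 genes with the highest Pearson correlation of log2(CPM + 0.5) were named, of which 1 is not reported here. The members and lists were chosen with earlier results of these data known. The comparisons of averaged groups and the count tests on recovered reads were added after the values were seen. Gene positions are from GENCODE vM21. Replicate numbers were checked for pairing over 15 comparisons, which passed where there were at least 3 same-numbered pairs and each correlated above 0.1. This held in 1, FT against HS at 72 h (0.14 to 0.29), although nothing in the labels ties the numbers to an animal or day. After HS, 1 week against 72 h (0.16 to 0.27) and 2 weeks against 1 week (0.12 to 0.21) were also above 0.1 but had only 2 pairs each.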

Additional observations from a re-analysis of the deposited data

Results flagged for a closer look

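*Nt5e* stood out by the test of the difference between times. The log2 difference was -1.74 from 72 h to 2 weeks after HS, -1.86 from 72 h to 2 weeks after FT, and -1.42 from 72 h to the later groups together. The level at 72 h after FT leaned on replicate 1, with 11.6 CPM, which also had the highest monocyte and border-associated macrophage sums, and the part of these cells was not tested. Groups of 3 samples are too small for the test of a single outlying sample.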

How the results depend on the processing

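Counts of members called, out of 6, are compared with those reported. At 72 h after HS the reported 1 (*Nt5e*) became 3 under quantile normalization, 2 with the same total in each column (*Adora3* and *Entpd1*, with *Nt5e* lost) and 2 with no fold limit. At 72 h after FT the reported 1 became 3 under each of these. At 1 week after HS the reported 0 became 1 under quantile normalization, the same total or a fit of only the 2 groups. At 2 weeks after HS 0 became 1 with only the 2 groups, the likelihood ratio test or DESeq2. At 1 week after FT 0 became 2 under quantile normalization, and 1 with the same total, no fold limit or DESeq2. At 2 weeks after FT 1 became 2 under quantile normalization and 0 with the same total. From 72 h to 1 week after FT 0 became 1 with 1 CPM added, quantile normalization, either edgeR test or DESeq2. From 72 h to 2 weeks after FT 1 became 0 with only the 2 groups. For all injured groups together the reported 1 (*P2rx4*) became 2 with the same total (*Adora3* and *Entpd1*, with *P2rx4* lost) and 3 with no fold limit, and for the later groups against 72 h 1 became 2 with no fold limit. The cause was not tested. With the longest transcript, 4 of 6 positions in the order of levels were kept in 5 injured groups and 3 at 1 week after FT.

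With each sample left out, the count ranged from 0 to 1 at 72 h and 2 weeks after HS, 0 to 2 at 72 h after FT, 0 to 1 at 1 and 2 weeks after FT, from 72 h to 1 week after FT and in all injured groups, 0 to 0 at 1 week after HS, and 1 to 1 from 72 h to 2 weeks after either injury and in the later groups. No called value changed sign. Of 3438 fold changes under the alternatives 120 had the opposite sign to that reported, with 0 at an adjusted p under 0.05 in either fit and reported sizes of at most 0.39, *P2ry6* at 72 h among them. Of the values for single genes, over all alternatives, 3331 kept their side of the threshold and either stayed called or moved by less than the spread between samples. Another 41 gained a call, 21 lost it and 45 moved by more than that spread. Sign was not part of this count for values called in neither fit. With the replicate number as a block, FT against HS at 72 h, the pair of groups whose numbers passed the check, still had 0 members called, and *Nt5e* was at 0.37. At 72 h after FT *Nt5e* was at 1.60 with the block. The fewest reads behind a member were 2, for *Nt5e*, which limits its precision.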
